A study of Mus musculus with 6 samples.

Results

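The T-cell receptor signalling and costimulation genes described here are Trbc1, Cd247, Cd2, Cd5, Ctla4, Cd80, Sh2d1a, Themis, Ubash3a and Ptprcap. They were chosen by symbol with earlier results of these data known. Each of the 10 was found in the deposited tables, which hold 651 genes. The tables contain only the genes that passed the thresholds of the original comparison, so these 10 genes were bound to differ between the genotypes and are described without a test. All 10 were higher in ERα-/-.GFP+ cells, between 1.96-fold and 2.35-fold on the scale of mean counts. Because of how the genes were chosen, neither their listing nor their shared direction is a finding. Of all 651 listed genes, 13.1% were higher in ERα-/-.GFP+ cells and 86.9% were lower.

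RNA was sequenced from mouse mammary cells sorted for GFP, with 3 samples of WT.GFP+ and 3 of ERα-/-.GFP+ cells. The donors were wild-type or germ-line ERα-/- mice on a C57Bl6 background that also carried a GFP transgene driven by an actin promoter, which is active in most cell types. Cells of either genotype were grafted by injection through the milk ducts into contralateral glands of NSG hosts, a strain that lacks its own mature T cells, B cells and NK cells, and the hosts were pregnant at collection. Ages are not given in the sources used here, and neither is the day of pregnancy for these libraries. Glands were pooled for the cell suspensions, and the sort for these libraries is described by GFP alone. The flow cytometry antibodies of the study include one against CD45, a surface protein of leukocytes, without a statement that it was applied to these samples.

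The tables give means over the samples of a genotype and no value of a single sample, so no spread between replicates can be given for any value below. Their columns name the groups only as selections. Selection 1 was taken as WT.GFP+ and selection 2 as ERα-/-.GFP+ from the direction that the publication states, so every direction rests on that assignment. Esr1, which encodes ERα, was in neither table. The publication reports that its level was low in these cells and did not differ significantly between the genotypes. Esr1 therefore gave no check of the assignment here. The depth was estimated from the listed genes at 27190483 reads per WT.GFP+ sample and 29326709 per ERα-/-.GFP+ sample, a ratio of 1.08. Of 15 luminal and milk markers only Pgr was listed, as lower, and the levels of the other markers, Krt8 and Csn2 among them, are therefore not known from these tables. Of 11 basal markers, 10 were listed and all 10 were lower. In such bulk samples, a larger number of cells of a type and more RNA per cell cannot be told apart.

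A T cell recognises a peptide held by an MHC molecule through its T-cell receptor, whose variable chains cannot signal by themselves. The signal is passed on by the CD3 chains and the CD247 (ζ) homodimer, whose tyrosines are phosphorylated by LCK and then bound by ZAP70. Adaptors such as THEMIS and the SLAM-associated protein SAP shape that signal inside the cell, while CD5 and the UBASH3 proteins dampen it. A separate costimulatory input comes from CD28, which binds CD80 and CD86 on presenting cells, and CTLA4 competes for the same ligands as a brake. In the mammary gland, T cells are found as a minor population within and around the epithelium.

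The reads of some of these genes cannot be assigned with certainty, and the sequences of Trbc1 show why. Trbc1 lies on chromosome 6 of GRCm38 from 41538218 to 41539881, next to Trbc2, the other constant region gene of the β chain, whose coding exons span 41546730 to 41548178. A T cell uses one of these constant regions in its rearranged β chain. In the first coding exon, 1 of 375 bases differed between both genes, in the second 3 of 18, in the third 15 of 107 and in the fourth 4 of 18. Their coding sequences were 95.6% identical over 518 bases. The window around the lone difference in the first exon is shown here, with the differing base in capitals, from chr6:41538447-41538507 and chr6:41546959-41547019 (plus strand).
Trbc1 coding exon 1: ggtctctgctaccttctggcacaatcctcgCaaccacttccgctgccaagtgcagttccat
Trbc2 coding exon 1: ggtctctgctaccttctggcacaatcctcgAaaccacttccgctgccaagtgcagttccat

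The third coding exon, at chr6:41539229-41539335 and chr6:41547772-41547878 (plus strand), is the coding exon with the most differing bases, although the shorter exons 2 and 4 differ more per base, and the differing bases are again in capitals.
Trbc1 coding exon 3: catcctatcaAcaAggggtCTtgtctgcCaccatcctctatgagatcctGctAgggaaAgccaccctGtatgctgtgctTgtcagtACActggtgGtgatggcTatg
Trbc2 coding exon 3: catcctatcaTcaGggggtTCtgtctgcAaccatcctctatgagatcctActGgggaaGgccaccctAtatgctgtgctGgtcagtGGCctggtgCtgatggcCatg

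The reads were 85 bases long. Of the 663 different stretches of 85 bases in the annotated Trbc1 transcripts, 213 (32.1%) also occurred in Trbc2, so the count of Trbc1 is uncertain and may hold reads of its neighbour. Trbc2 was in neither table. Ptprcap, Cd247 and Sh2d1a overlap exons of other genes over a large part of their own length, and the library kit does not mark the strand. Of the stretches of Ptprcap, 86.9% also lay in transcripts of Coro1b or Rps6kb2. The share was 52.6% for Cd247, mostly with Pou2f1 on the opposite strand, and 24.6% for Sh2d1a, with Tenm1 on the opposite strand. Coro1b, Rps6kb2, Pou2f1 and Tenm1 were in neither table. For Themis the share was 0.625%, and none of the stretches of Cd2, Cd5, Ctla4, Cd80 and Ubash3a was found in transcripts of another gene. The values of Cd2, Cd5, Ctla4, Cd80 and Ubash3a are thus the ones with no shared reads of this length in the annotation.

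Of the receptor complex, Trbc1 and Cd247 were listed. Trbc1 encodes the constant region of the T-cell receptor β chain. Its mean level was 7.97 log2 CPM (log2 of depth-normalised counts) in WT.GFP+ and 9.11 log2 CPM in ERα-/-.GFP+ cells, a difference of 1.13. The mean counts of Trbc1 were 6899 and 15428 reads per sample, and the ratio of these counts at equal depth was 2.07. The 95% interval of that ratio was 2.04 to 2.11, and this and all further intervals of ratios (exact, conditional on the summed counts of both genotypes) cover counting error only. They hold neither the spread between animals nor that of the amplification, since the reads carry no molecular identifiers, and are narrower than a replicate error would be. They also take the estimated depths as exact.

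Cd247 encodes the ζ chain, the part of the complex with most of its signalling tyrosine motifs, and lies on chromosome 1 from 165788681 to 165877277. Cd247 had a mean level of 6.09 log2 CPM in WT.GFP+ and 7.21 log2 CPM in ERα-/-.GFP+ cells, a difference of 1.11. The mean counts of Cd247 were 1834 and 4244 reads, with a ratio of 2.15 at equal depth (2.08 to 2.22). Both listed chains of the receptor complex were higher in ERα-/-.GFP+ cells by similar amounts, where 13.1% of all listed genes were higher. Given how the genes were chosen, their shared direction is no finding. The other 9 genes of an 11-gene list of the complex, with Cd3d, Cd3e, Cd3g and Trac among them, were in neither table, so their levels are not known here.

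Of the receptors that modulate the signal at the surface, Cd2 and Ctla4 were among the 10 genes. CD2 is an adhesion and costimulatory receptor that binds CD48 in mice, and its gene lies on chromosome 3 from 101275899 to 101287939. Cd2 had a mean level of 7.94 log2 CPM in WT.GFP+ and 9.02 log2 CPM in ERα-/-.GFP+ cells, from mean counts of 6649 and 14713 reads. The ratio of the counts of Cd2 at equal depth was 2.05 (2.02 to 2.09).

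Ctla4 encodes the inhibitory receptor for CD80 and CD86, which is induced on activated T cells and is constitutive on regulatory T cells. The gene lies on chromosome 1 from 60887000 to 60915832. Ctla4 averaged 7.36 log2 CPM in WT.GFP+ and 8.43 log2 CPM in ERα-/-.GFP+ cells, from mean counts of 4411 and 10087 reads. The ratio for Ctla4 was 2.12 (2.08 to 2.16). The activating receptor Cd28 and the regulatory T-cell factor Foxp3 were in neither table.

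Cd80, the gene of a shared ligand of CD28 and CTLA4, is chiefly active in presenting cells and can also be induced on T cells. It lies on chromosome 16 from 38455561 to 38496335. Its mean level was the lowest of the 10 genes, at 2.05 log2 CPM in WT.GFP+ and 3.25 log2 CPM in ERα-/-.GFP+ cells. The mean counts of Cd80 were 112 and 267 reads, with a ratio of 2.22 and the widest counting interval, 1.95 to 2.53. The other ligands of a 17-gene list, Cd86, Icosl and Cd274 among them, were in neither table.

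Sh2d1a and Themis encode proteins that act close to the receptor inside the cell. Sh2d1a, on chromosome X from 42502453 to 42529330, encodes SAP, the adaptor of the SLAM family of receptors. Sh2d1a averaged 4.57 log2 CPM in WT.GFP+ and 5.81 log2 CPM in ERα-/-.GFP+ cells, from mean counts of 637 and 1612 reads. This was the largest difference of the 10 genes, 1.24 on the log2 CPM scale, and a ratio of counts of 2.35 (2.23 to 2.48).

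Themis, on chromosome 10 from 28668360 to 28883818, encodes an adaptor needed for the selection of thymocytes. Its mean level was 6.15 log2 CPM in WT.GFP+ and 7.29 log2 CPM in ERα-/-.GFP+ cells. The mean counts of Themis were 1898 and 4464 reads, and their ratio was 2.18 (2.11 to 2.25). The kinases Lck and Zap70 and the adaptor Lat, which act at the same step, were in neither table.

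Cd5 and Ubash3a encode proteins that dampen the signal, and Ptprcap, whose product is associated with a phosphatase, was grouped with them. CD5 is a surface glycoprotein of T cells and of a subset of B cells that dampens receptor signalling, and its gene lies on chromosome 19 from 10717116 to 10739002. Cd5 had a mean level of 6.45 log2 CPM in WT.GFP+ and 7.51 log2 CPM in ERα-/-.GFP+ cells, from mean counts of 2335 and 5459 reads with a ratio of 2.17 (2.11 to 2.23).

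Ubash3a, on chromosome 17 from 31207873 to 31246892, encodes a ubiquitin-binding protein that restrains T-cell receptor signalling. It had mean levels of 5.81 and 6.84 log2 CPM, the smallest difference of the 10 genes at 1.03. The mean counts of Ubash3a were 1516 and 3202 reads, and their ratio at equal depth was 1.96 (1.89 to 2.03). Ubash3a was the one gene of the 10 whose ratio of counts lay below 2-fold, and its counting interval included 2-fold, as did that of Cd80.

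Ptprcap, on chromosome 19 from 4153604 to 4156751, encodes a transmembrane protein associated with the phosphatase CD45. Its mean level was 6.80 log2 CPM in WT.GFP+ and 7.95 log2 CPM in ERα-/-.GFP+ cells. The mean counts of Ptprcap were 2983 and 7127 reads, and the ratio was 2.21 (2.16 to 2.27). Ptprc, the gene of CD45 itself, was in neither table. All 3 genes of this group were higher in ERα-/-.GFP+ cells, where 13.1% of all listed genes were higher. Given how the genes were chosen, this is no finding.

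**Figure D1:**
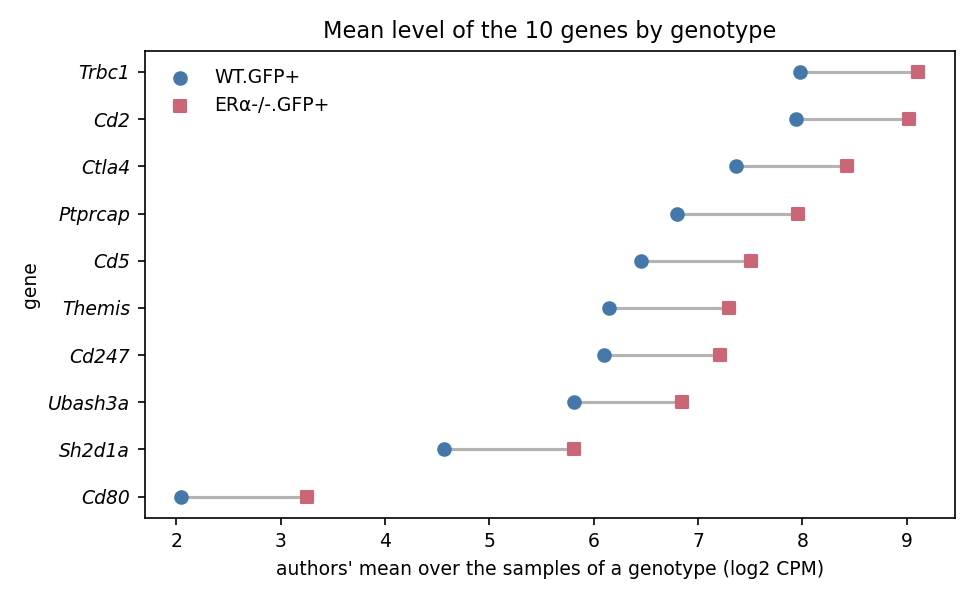
Mean level of each of the 10 genes in log2 CPM on the horizontal axis, with circles for WT.GFP+ and squares for ERα-/-.GFP+ cells, each a deposited mean of one genotype. Every square lies to the right of its circle, by 1.03 for Ubash3a to 1.24 for Sh2d1a, while the levels themselves range from 2.05 for Cd80 to 7.97 for Trbc1 in WT.GFP+ cells.

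The differences of the 10 genes lay close together. On the log2 CPM scale they ranged from 1.03 to 1.24, a span of 0.21, with a median of 1.12. The median over all 651 listed genes was −1.65, that over the 566 lower genes −1.74, and that over the 85 higher genes 1.08. The lower end of the span is bounded by the listing, since a listed gene had to pass a change of 2-fold in the original comparison. The closeness is also no particular feature of the 10 genes, because the other 67 higher genes whose mean counts reached 100 in both genotypes ranged from 0.98 to 1.47, and 41 of these lay inside the span of the 10 genes.

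On the count scale the intervals of the 10 genes were not all the same. The log2 ratio of Sh2d1a was 1.23, with a counting interval of 1.15 to 1.31, and that of Ubash3a was 0.97, with an interval of 0.92 to 1.02, so that these intervals did not overlap. The median log2 ratio of the 10 genes was 1.11, and the intervals of 5 of them included it. How much of this spread lies within the error between samples is not known, since no value per sample was used.

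**Figure D2:**
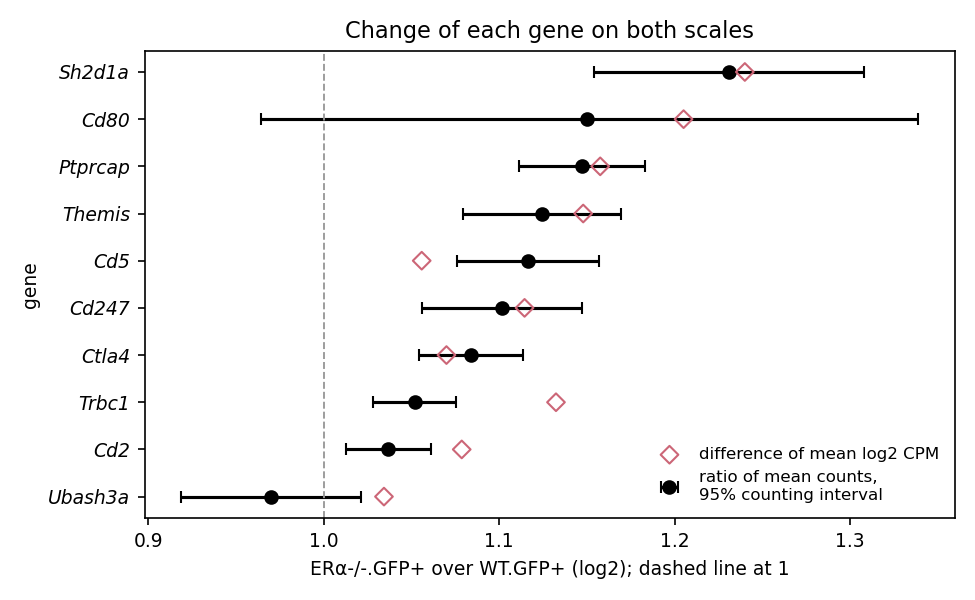
Change of each gene in ERα-/-.GFP+ over WT.GFP+ cells on the log2 scale, with filled circles for the ratio of mean counts at equal depth, bars for its 95% counting interval and open diamonds for the difference of mean log2 CPM; the dashed line marks 1, a change of 2-fold. Ubash3a is lowest on both scales and Sh2d1a highest, and for Trbc1, Cd2, Cd5 and Ubash3a the diamond lies outside the bar.

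The make-up of the group was also compared between the genotypes. Together the 10 genes had 29274 reads per sample in WT.GFP+ and 66603 in ERα-/-.GFP+ cells. These were 0.1077% (Wilson 95% interval 0.1070 to 0.1084) and 0.227% (0.226 to 0.228) of the estimated depth. The ratio of the sums at equal depth was 2.11 (2.09 to 2.13). Trbc1 held 23.6% of these reads in WT.GFP+ (23.3 to 23.8) and 23.2% in ERα-/-.GFP+ cells (22.98 to 23.4). Ctla4 held 15.1% of these reads in both genotypes (14.8 to 15.3 and 14.99 to 15.3). All intervals of shares in this paragraph cover counting error only. They hold neither the spread between samples nor the error of the estimated depth. The share of Sh2d1a was 1.11 times as large in ERα-/-.GFP+ as in WT.GFP+ cells and that of Ubash3a 0.929 times, and the other 8 genes lay between these.

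**Figure D3:**
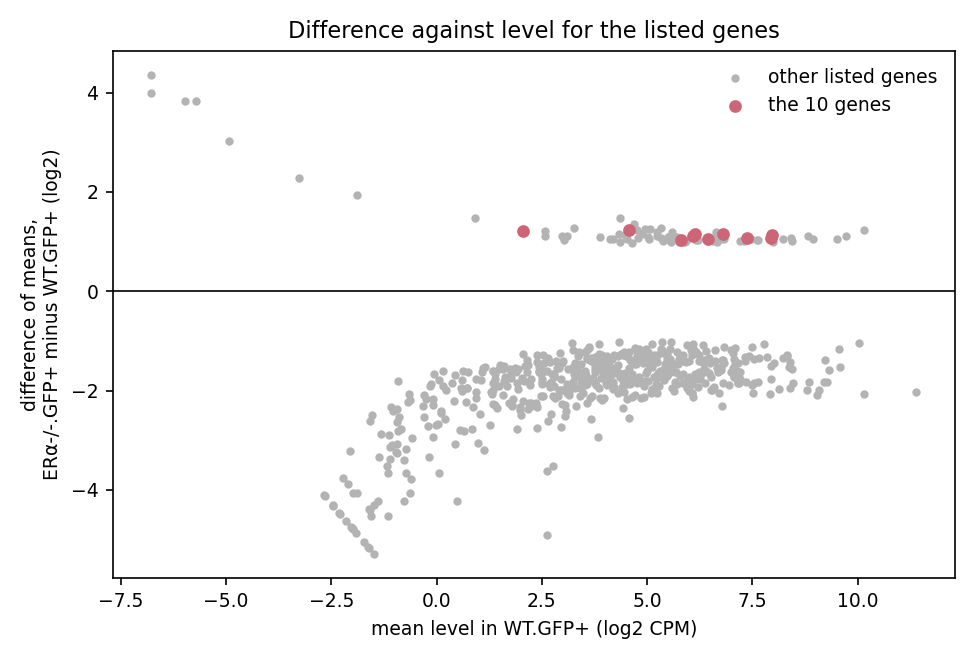
Difference of the means (ERα-/-.GFP+ minus WT.GFP+, log2 CPM scale) on the vertical axis against the mean level in WT.GFP+ (log2 CPM) on the horizontal axis, one point per listed gene, with the 10 genes in red and the other 641 in grey. The 10 genes lie within the narrow upper band of well-counted higher genes, far from the 566 lower genes, and the gap around 0 is there because only genes past the thresholds were listed.

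Levels can be compared between genes only per length, which was done as mean CPM per kilobase of annotated exon. Trbc1 was highest on this scale, at 339 in WT.GFP+ and 702 in ERα-/-.GFP+ cells, followed by Cd2 at 140 and 288 CPM per kilobase. Ctla4 (69.6 and 148 CPM per kilobase) and Ptprcap (68.1 and 151) came next and exchanged places between the genotypes, while Ptprcap was above Ctla4 in both when the longest transcript was used as the length. Cd5 had 17.4 and 37.8 CPM per kilobase and Cd247 12.7 and 27.2. Themis, Ubash3a and Sh2d1a lay between 4.25 and 5.98 in WT.GFP+ and between 9.72 and 13.03 in ERα-/-.GFP+ cells, with Ubash3a and Sh2d1a again exchanging places. With the longest transcript as the length, Sh2d1a was above Ubash3a in both genotypes. Cd80 was lowest at 1.11 and 2.46 CPM per kilobase. Themis has 11682 bases of annotated exon against 5082 in its longest transcript, and with the longest transcript its WT.GFP+ level was 13.7 CPM per kilobase. With that length the WT.GFP+ levels of Sh2d1a (8.53 CPM per kilobase), Cd247 (22.8), Cd5 (28.7) and Cd2 (212) were also more than 1.5 times those over all annotated exons. The stretches that Trbc1, Ptprcap, Cd247 and Sh2d1a share with other genes were not corrected for, so the places of these genes in the order are uncertain. No replicate error is available for these levels.

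**Figure D4:**
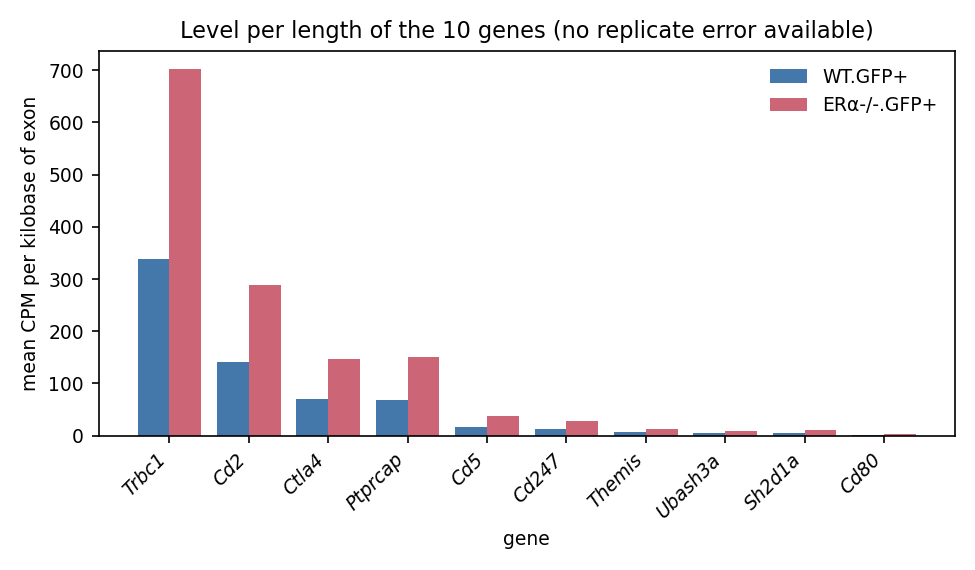
Mean CPM per kilobase of annotated exon for each of the 10 genes, with blue bars for WT.GFP+ and red bars for ERα-/-.GFP+ cells, from a vertical axis that starts at 0. Trbc1 stands highest at 339 and 702, the next gene, Cd2, reaches 140 and 288, and Cd80 is barely visible at 1.11 and 2.46.

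The listed genes around this pathway were counted in lists of receptor chains, proximal kinases and adaptors, phosphatases and negative regulators, surface receptors, ligands and transcription factors. Of the 130 genes in these lists, 14 were listed, all 14 as higher in ERα-/-.GFP+ cells, and 116 were in neither table. They include the 10 genes described here, and the lists were written around these, so the count has no weight as evidence of a direction. The 4 others were Sla, Dok2, Ly9 and Batf. Sla encodes an adaptor that lowers the receptor at the cell surface, and its mean counts were 8061 and 18115 reads. Dok2, a docking protein that restrains receptor signalling, had mean counts of 1989 and 4215 reads. Ly9, a receptor of the SLAM family to which SAP binds, had 464 and 1023 reads. Batf, a transcription factor of activated T cells, had 726 and 1802 reads. Their differences on the log2 CPM scale ranged from 1.03 for Dok2 to 1.23 for Batf, a range inside that of the 10 genes apart from Dok2, which lay just below Ubash3a.

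Markers of other cell types stood beside these genes in the same tables. Of 16 markers of cytotoxic and NK cells, 7 were listed and all 7 were higher in ERα-/-.GFP+ cells, by 1.11 for Nkg7 to 1.34 for Klrg1 on the log2 CPM scale. Their summed level was 2236 CPM in WT.GFP+ and 5120 CPM in ERα-/-.GFP+ cells. Of 20 pan-leukocyte markers, 5 were listed as higher (Arhgdib, Coro1a, Hcls1, Rac2 and Was), with sums of 1350 and 2800 CPM. Of 11 B-cell markers, 16 markers of myeloid and dendritic cells and 14 of endothelial cells, fibroblasts and adipocytes, 0 were listed, which says nothing of their levels. The marker lists were chosen with earlier results of these data known, so these counts have no weight as evidence of a direction. The 7 cytotoxic and 5 pan-leukocyte markers that were listed were higher, as were the 10 genes, where 13.1% of all listed genes were higher. The other 9 and 15 markers have no known level here, and the part of these markers in the result was not tested.

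The listed genes outside the 10 that were most like them in size of change were Gna15, Ncf4, BC021614, Gimap1 and Themis2. Likeness was the distance of a gene's log2 CPM difference from the median of the 10, among genes whose mean counts reached 100 in both genotypes. It rests on 2 group means only, and these distances were between 0.0012 and 0.0085.

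Promoter sequences were available from RefSeq (GRCm38.p6, 250 bases before to 50 bases after the start) for Ctla4, Cd247, Themis, Cd80, Ubash3a and Cd5. The window of Ctla4 belongs to the RefSeq start. Trbc1, Cd2, Sh2d1a and Ptprcap had no window there. The 6 genes had 7 windows together. A gene was counted if any of its windows held a motif, whereas the shares of all windows count single windows. Since the genotypes differ in ERα, the windows were searched on both strands for the palindromic oestrogen response element, which is GGTCA and TGACC with any 3 bases between them, and for motifs of factors active in lymphocytes. The oestrogen response element was found in 0 of the 6 genes and in 0.07% of 32851 windows of all genes, so its lack in these windows says nothing about ERα. The ETS core AGGAAG was found in Ctla4, Cd247 and Cd5, or 3 of 6 genes, against 35.4% of all windows. The RUNX motif TGTGGT was found in 0 of the 6 genes against 16.8% of all windows. The NFAT motif GGAAAA, which can share its GGAA with the ETS core, was found in Ctla4 only, and the GATA motif AGATAA in Ubash3a only, against 23.4% and 11.2% of all windows. A TATA box (TATAAA) was found in Cd80 and Ctla4, in both after the annotated start, against 13.6%. The 100 bases before the start of the 3 genes with the ETS core are shown 5′ to 3′ on the strand of the gene, with that core (AGGAAG or its complement) in capitals, from chr1:60908925-60909024 (plus strand), chr1:165788581-165788680 (plus strand) and chr19:10738975-10739074 (minus strand).
Ctla4: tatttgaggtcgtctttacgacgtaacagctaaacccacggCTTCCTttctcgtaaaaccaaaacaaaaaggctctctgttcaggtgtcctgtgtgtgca
Cd247: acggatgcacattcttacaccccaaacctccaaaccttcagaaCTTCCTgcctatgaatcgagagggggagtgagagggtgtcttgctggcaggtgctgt
Cd5: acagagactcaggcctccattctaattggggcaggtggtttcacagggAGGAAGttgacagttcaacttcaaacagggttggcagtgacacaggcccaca

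In these 3 windows the shown core began 59 bases before the start in Ctla4, 57 in Cd247 and 52 in Cd5. Cd247 held another from transcribed base 23 and Cd5 another from 109 bases before it. A match of 6 letters is a description of the sequence and not a bound site.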

How the data were processed

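The authors aligned single-end reads of libraries made with SMART-Seq v4 and Nextera XT to mm10, counted them per gene and compared the genotypes with edgeR in the ASAP pipeline; the counter, annotation and strand setting are not given in the sources used here. The deposited tables hold, for each gene past the thresholds, a mean raw count and a mean log2 CPM per genotype. Each deposited mean count times 3 was whole within 0.02. The tables also hold the fold changes, p-values and FDR of that comparison, which were not used. Samples were numbered 2, 3 and 5 (WT.GFP+) and 2, 4 and 6 (ERα-/-.GFP+) in the labels.

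Differences are those of the mean log2 CPM, ERα-/-.GFP+ minus WT.GFP+. Depth per genotype was the median of mean count over mean CPM, over 220 and 140 genes whose mean counts reached 1000, and count ratios used these depths. No test was made, as no value per sample was used. The ratio and its interval were run on simulated counts that held counting error only, at the same depths. That simulation says nothing about spread between samples or from amplification. Positions, exon lengths and transcripts came from GENCODE release M21 (GRCm38), with 650 of the 651 Ensembl identifiers found. Genes named were the 10 members, genes of the pathway and cell type marker lists, genes that overlap or resemble a member, and the 5 nearest in change. Unlisted genes were named as examples, and genes named in the other observations were chosen after their values were seen. The members and lists were chosen with earlier results of these data known. The tools were scipy 1.17.1, pandas 2.3.3, numpy 2.4.6 and, for plots, matplotlib 3.10.9 under Python 3.11.15.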

Additional observations from a re-analysis of the deposited data

How the results depend on the processing

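The 10 genes were higher in ERα-/-.GFP+ cells under every alternative scale tried, which is no sign of stability, as they were listed for changes of about 2-fold. Of 30 single-gene values under 3 alternatives, 17 moved by more than the distance from the ratio to the edge of its counting interval, 13 did not and 0 reversed. The median difference of the 10 genes was 1.12 on the log2 CPM scale and 1.22 as a ratio of counts with no depth correction, which shifts all genes by 0.11. The smallest difference, 1.03, became 0.97 as a ratio of counts at equal depth, 0.96 as log2(CPM + 1) and 1.08 with no depth correction. The largest, 1.24, became 1.20 as log2(CPM + 1) and 1.34 with no depth correction. At more than 2-fold on the count scale, 9 of the 10 genes remained (all but Ubash3a) and 12 of the 14 pathway genes. Of the 85 listed genes that were higher, 69 passed this cut, which is 10.6% of all 651 listed genes. With mean counts of at least 10 or 100 in both genotypes all 10 genes were kept, and the share of higher genes among those listed was 14.0% and 19.1%. No paired analysis was possible because the columns hold means of a genotype, and the sample numbers of the genotypes share only 1 number. Fits without each replicate could not be made for the same reason. Counts near 100 limit the precision for Cd80 most.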

Other observations

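Other genes of lymphocyte signalling, chosen after their values were seen, were also in the list of genes higher in ERα-/-.GFP+ cells. Map4k1, a kinase that restrains T-cell receptor signalling, had a mean count of 616 reads with ERα (WT.GFP+) and 1400 without it. Pik3cd, the leukocyte catalytic subunit of phosphoinositide 3-kinase, had 5273 and 11244 reads. Sash3, an adaptor of lymphocytes, had 2548 and 5547 reads. Tnfsf8, the ligand of CD30, had 551 and 1700 reads, and its log2 CPM difference of 1.47 exceeded that of each of the 10 genes described above. The chemokine receptor gene Cxcr3, found on activated T cells, had 1023 and 2404 reads. As with the 10 genes, these values are means of a genotype without a spread between samples.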
